A study of Mus musculus with 19 samples.

Results

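Open-chromatin maps of embryonic mouse forebrain were read at 10 genes that drive or mark the formation of glia, the supporting cells of the brain. They were Nfia, Nfib, Nfix, Zbtb20, Sox8, Sox10, Pdgfra, Gfap, Aqp4 and Aldh1l1, which are 10 of 21887 protein-coding genes on GRCm38. Their sites are the peak summits whose nearest protein-coding gene end, at most 100 kb away, belonged to 1 of the 10 genes. Such summits numbered 2283 of 1547369 deposited ones. In each library the 29112 best-scoring summits, as many as the shortest list held, were also kept as a matched set, and 900 of its 553128 summits belonged to the 10 genes. Chromatin was profiled by ATAC-seq, in which a transposase cuts and tags accessible DNA, on neural progenitors pulled out of the forebrain with magnetic beads by the surface protein Prom1 at embryonic day 14. The 19 bulk libraries comprised 6 Foxc1 mutants on a retinoic acid (RA) diet, 5 controls on that diet, 4 mutants without it and 4 controls without it. Mutants were Foxc1 hith/LacZ and controls Foxc1 WT. The hith allele is hypomorphic, the LacZ allele is a null, and Foxc1 is a transcription factor that the meninges, the membranes around the brain, need to form. Mutant 1 is labelled Foxc1 WT although its title calls it a mutant, and it was grouped by its title. The labels give no dose or duration of the diet and do not say whether libraries are separate animals, so the p-values cover the spread between these libraries, which may be technical.

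Glia arise late in forebrain development, after the progenitors have produced most neurons. Nuclear factor I proteins (Nfia, Nfib and Nfix) and the zinc-finger protein Zbtb20 act in progenitors at this transition. Sox8 and Sox10 are SoxE transcription factors of the oligodendrocyte lineage, Pdgfra is the growth factor receptor of oligodendrocyte precursors, and Gfap, Aqp4 and Aldh1l1 are a filament protein, a water channel and a folate enzyme that mark astrocytes.

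The files hold summit positions and scores but no read counts, so sequencing depth is unknown. List length, which stands in for it, ran from 29112 to 87470 in mutants on the diet, from 59106 to 91114 in controls on the diet, from 49804 to 115007 in mutants and from 77593 to 122591 in controls. Mutants 3 and 4 stood apart, with mean rank correlations to the other libraries of 0.677 and 0.678, against 0.710 to 0.863 for the other libraries. Every library had a matched summit at most 1 kb from an end of 6 of 10 neural progenitor markers (Sox1, Sox2, Vim, Fabp7, Slc1a3 and Hes5). This held for 3 of 8 neuron markers, 2 of 6 astrocyte markers (Glul and Aldoc), 0 of 9 oligodendrocyte-lineage markers, 1 of 7 microglia markers (Irf8), 1 of 5 mural markers (Tbx18), 0 of 8 meningeal fibroblast markers, 1 of 7 endothelial markers (Kdr) and 0 of 5 erythroid markers, against 36.6% of all genes. The other progenitor markers, Prom1 (the protein used for sorting), Pax6, Nes and Notch1, had such a summit in some libraries but not in all. In bulk libraries, fewer cells of a type and weaker accessibility per cell cannot be told apart.

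The sites of the 10 genes lay mostly away from gene ends. Matched summits at most 200 bp apart were chained into regions, and 71 regions with summits from at least 2 libraries belonged to the 10 genes, of 44884 in all. Of the 71, 23 (32.4%) were present in every library, against 29.0% of all regions, while 7 (9.86%) were at most 1 kb from an end, against 26.2% of all regions. Of the 71, 40 lay inside the gene they were assigned to. Another 28 regions came from 1 library each. Exons and introns were not distinguished. In all deposited summits the 10 genes had 225 of 150489 regions, with 26 (11.6%) in every library, against 12.4% of all.

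The sites of these genes ranked near the middle of each library, where the median of all its matched summits lies by definition. The share of member summits among the best-scoring 25% of a library ranged from 12.2% to 25% (median 18.4%). The median percentile of a member summit (100 for the best-scoring matched summit of a library, near 0 for the last) ranged from 32.4 to 54.6 in mutants on the diet, 39.5 to 50.5 in controls on the diet, 44.1 to 48.2 in mutants and 47.1 to 55.1 in controls, and the groups overlapped. In the 23 regions present in every library the median SD of the percentile over libraries was 12.4 points, against 9.11 over all 13035 such regions. The median of their mean percentile was 65.0, against 73.0 over all.

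How many summits a gene collects depends on the length of DNA that is nearest to its ends. Nfib had the highest mean of all genes, with 15.7 matched summits per library, and 0.0640% of genes reached the mean of Nfia, 11.5, itself included. Both genes draw on the longest possible stretch, 400 kb, against a median of 46.4 kb over all genes. Per 100 kb of that stretch, Nfib had 3.92 summits and Nfia 2.88, more than 81.3% and 73.6% of genes. Gfap was the densest of the 10, with 13.6 per 100 kb (more than 97.7% of genes), followed by Nfix with 7.85 and Sox8 with 6.92. The Gfap value rests on a mean of 1.95 summits over 14.3 kb. The Gfap regions had low median ranks, 22954 to 24752, and none was in every library. Zbtb20, Pdgfra and Aqp4, with 1.15, 1.15 and 1.3, were close to the median gene (1.17).

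**Figure D1:**
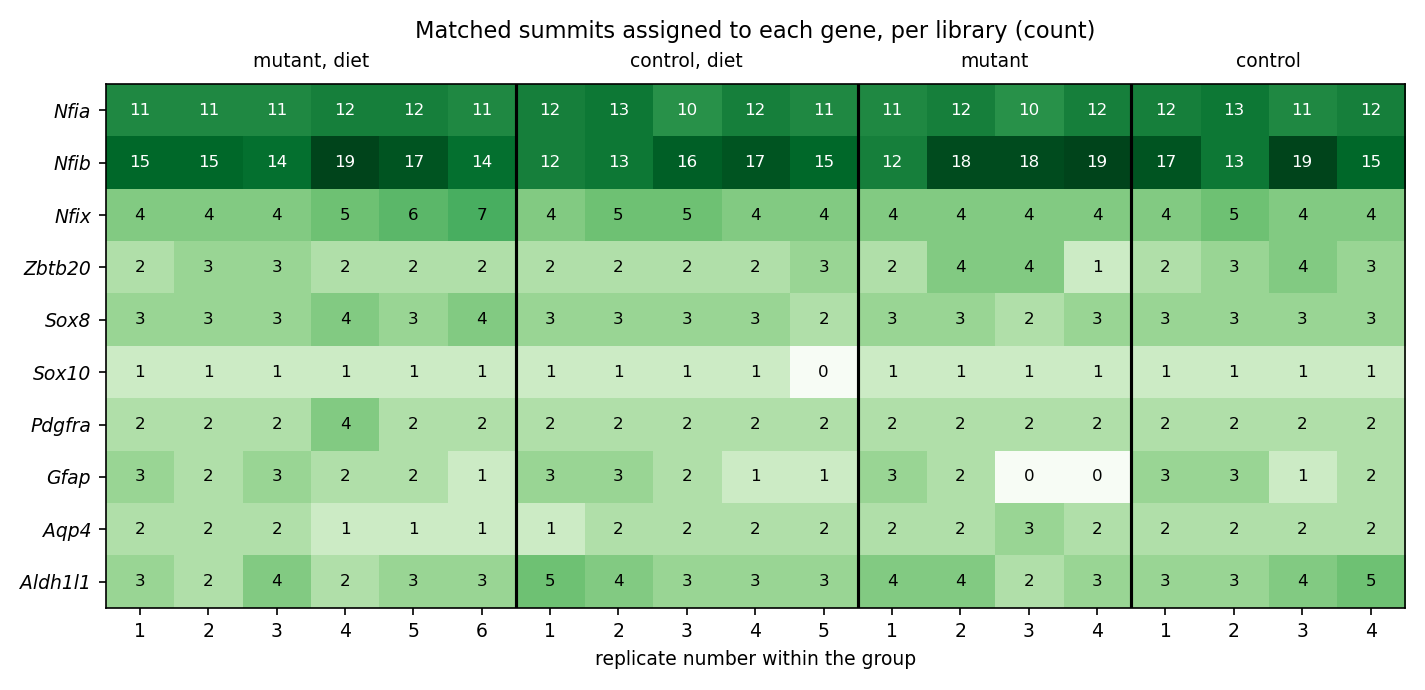
Number of matched summits assigned to each of the 10 genes (rows) in each of the 19 libraries (columns, by group and replicate number), with darker green for more summits. Nfib and Nfia hold 10 or more in every library, Sox10 holds 1 in all but 1 library, and Gfap is at 0 in mutants 3 and 4.

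Gene ends divided the 10 genes. Nfib, Zbtb20 and Sox8 had a matched summit within 1 kb of an end in every library (3 of 10, against 36.6% of all genes). Nfia, Sox10, Pdgfra, Gfap and Aqp4 had none in any library (5 of 10, against 43.7% of all genes). Nfix had one in 3 of 6 mutants on the diet, 4 of 5 controls on the diet, 2 of 4 mutants and 3 of 4 controls, and Aldh1l1 in 2 of 19 libraries. Counting every deposited summit regardless of rank, Nfia had an end summit in 15 libraries, Aldh1l1 in 14, Nfix in 17 and Pdgfra in 8. Pdgfra had them in 2 of 6 mutants on the diet, 1 of 5 controls on the diet, 1 of 4 mutants and 4 of 4 controls. Sox10, Gfap and Aqp4 had no deposited summit within 1 kb of an end in any library.

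RefSeq promoter windows of 300 bases on GRCm38.p6, from 250 before to 50 after a start site, were matched to 7 of the 10 genes, and 4 genes had summits inside a window. They are printed because they hold the accessible base itself, with capitals marking the span from the first to the last deposited summit. The Sox8 window (chr17:25570637-25570936, minus strand) had a summit in 19 of 19 libraries, all in the matched set. The Nfix window (chr8:84780033-84780332, minus strand) belongs to a start site inside the gene and had one in 15 libraries. The Nfia window (chr4:97581693-97581992, plus strand), 3.829 kb inside the annotated gene, had one in 13 libraries, of which 8 in the matched set. The Aldh1l1 window (chr6:90550543-90550842, plus strand) had one in 14 libraries, of which 2 in the matched set.
Sox8: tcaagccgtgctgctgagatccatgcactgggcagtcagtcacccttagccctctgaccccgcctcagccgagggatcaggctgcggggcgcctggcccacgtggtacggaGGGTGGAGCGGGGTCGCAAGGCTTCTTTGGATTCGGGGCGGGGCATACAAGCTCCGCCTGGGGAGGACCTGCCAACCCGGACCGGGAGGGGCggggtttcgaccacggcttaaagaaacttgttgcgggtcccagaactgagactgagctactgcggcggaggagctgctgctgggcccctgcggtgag
Nfix: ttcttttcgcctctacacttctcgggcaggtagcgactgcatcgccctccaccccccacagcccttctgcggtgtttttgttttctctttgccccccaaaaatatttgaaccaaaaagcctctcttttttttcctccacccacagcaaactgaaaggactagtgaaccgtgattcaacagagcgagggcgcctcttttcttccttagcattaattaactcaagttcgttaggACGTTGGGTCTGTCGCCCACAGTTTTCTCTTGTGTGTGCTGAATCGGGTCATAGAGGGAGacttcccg
Nfia: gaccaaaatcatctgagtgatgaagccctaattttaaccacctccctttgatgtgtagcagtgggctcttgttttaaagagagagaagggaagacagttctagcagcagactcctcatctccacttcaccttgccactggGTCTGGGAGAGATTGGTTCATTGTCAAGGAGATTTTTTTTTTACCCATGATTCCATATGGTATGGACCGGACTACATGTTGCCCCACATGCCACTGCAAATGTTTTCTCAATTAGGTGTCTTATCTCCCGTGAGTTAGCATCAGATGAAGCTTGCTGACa
Aldh1l1: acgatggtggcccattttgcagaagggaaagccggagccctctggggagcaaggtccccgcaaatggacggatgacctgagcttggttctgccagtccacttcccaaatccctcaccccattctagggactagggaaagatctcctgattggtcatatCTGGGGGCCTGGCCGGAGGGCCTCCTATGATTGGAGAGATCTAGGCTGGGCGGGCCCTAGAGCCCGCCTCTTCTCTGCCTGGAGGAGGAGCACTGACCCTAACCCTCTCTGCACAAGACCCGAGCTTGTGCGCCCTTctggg
The Sox8 span covers 92 bases, lies wholly before the start site and sits in a window of 66.3% G and C. The Nfix, Nfia and Aldh1l1 spans cover 60, 159 and 137 bases in windows of 49.3%, 44.7% and 60% G and C, against a median of 52.7% over 32851 windows. On both strands, the NFI motif TTGGC was found 1 time in the Sox8 window and not in the other 3 windows printed, and 46.7% of all windows hold it. The SOX motif ACAAT was found 1 time in the Nfia window (31% of all windows), and TGGGAA, the motif of the Notch partner RBPJ, 1 time in the Aldh1l1 window (25.6% of all windows). AGGTCA, a nuclear receptor motif that retinoic acid receptors bind, was found 1 time in the Aldh1l1 window (16.3% of all windows). No match overlapped another, and a match is a description of letters and not of binding.

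Nfia, a nuclear factor I gene needed for the onset of gliogenesis, had 11, 11 and 12 matched summits as lowest, median and highest in mutants on the diet. Controls on the diet had 12, 13, 10, 12 and 11, mutants 11, 12, 10 and 12, and controls 12, 13, 11 and 12. The 4 groups overlapped throughout, and the log2 differences lay between -0.09 and 0.01 over the contrasts of single groups. Its matched summits formed 16 regions, 14 of them inside the gene and 6 present in every library. The best-ranked lay 10 kb inside the end with the higher coordinate (chromosome 4, 98108723 to 98108937), at a percentile of 82.4 to 94.3 (median 91.5) in mutants on the diet. There it was at 90.9 to 94.4 in controls on the diet, 83.9 to 94.4 in mutants and 87.3 to 92.2 in controls. A further 10 to 18 matched summits per library lay inside the gene, which spans 541 kb, but over 100 kb from any gene end, and were not assigned.

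Of the 6 Nfia regions in every library, 3 had their best median percentile in controls and 3 in controls on the diet. Among the weaker Nfia sites, 3 met the rule for a full separation of groups or an unadjusted p under 0.05 for diet or genotype, and all 3 ranked or occurred highest in controls. The site 40.9 kb inside the gene (chromosome 4, 97618731 to 97619208) was present in every library. Its percentile was 40.7, 10.2, 27.7, 30.3, 10.4 and 19.8 in mutants on the diet. The controls on that diet were at 26.5, 36.7, 25.5, 26.8 and 30, mutants at 23.6, 46.7, 13.5 and 32.6, and controls at 49.6, 57.2, 51.3 and 44.8. All 4 controls ranked above every library on the diet, of either genotype, and above mutants 1, 3 and 4, whereas mutant 2 fell inside the range of controls. The difference from controls was -27.5 points in mutants on the diet (SE 7.66, limma adjusted p = 0.221), -21.6 in controls on the diet (SE 7.96, limma adjusted p = 0.905) and -21.6 in mutants (SE 8.39, limma adjusted p = 0.334). None passed the threshold of 0.05. The diet over both genotypes gave -13.8 points (SE 5.52, limma adjusted p = 0.236), genotype over both diets also -13.8 points (SE 5.52, limma adjusted p = 0.480), and the interaction of genotype and diet did not pass either (limma adjusted p = 0.873). A further Nfia region (chromosome 4, 97676051 to 97676228) was instead lowest in controls, with median percentiles of 48.0 in mutants on the diet, 49.6 in controls on the diet, 36.7 in mutants and 25.5 in controls. Another, 91.9 kb inside the gene (chromosome 4, 97669968 to 97670025), had a matched summit in 3 of 6 mutants on the diet, 2 of 5 controls on the diet, 0 of 4 mutants and 0 of 4 controls (diet over both genotypes, two-sided exact p = 0.0519, adjusted p = 0.775).

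The second of the 3 sites lay 2.405 kb outside the gene (chromosome 4, 97575633 to 97575689) and had a matched summit in 0 of 6 mutants on the diet, 0 of 5 controls on the diet, 2 of 4 mutants (1 and 2) and 4 of 4 controls. The separation was one of rank. Among all deposited summits, the site ranked 29657, 47016 and 30183 in mutants 1 to 3 on the diet, had no summit in the other 3, and ranked 31787 to 34299 in controls on the diet. Mutants ranked 24170, 23958, 42296 and 35637, and controls 21425 to 23081, against a matched limit of 29112. Controls on the diet and controls therefore did not overlap, and neither did mutants on the diet and controls. The absence of matched summits on the diet had a two-sided exact p = 0.00106 with genotype as stratum, and a Benjamini-Hochberg adjusted p = 0.553 over 31849 regions. With the matched length raised to 48323 and the shortest library left out, the site was present in 3 of 5 mutants on the diet, 5 of 5 controls on the diet, 4 of 4 mutants and 4 of 4 controls.

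The remaining site of the 3, 51.0 kb inside Nfia (chromosome 4, 97629039 to 97629086), had a matched summit in 0 of 6 mutants on the diet, 3 of 5 controls on the diet, 2 of 4 mutants and 4 of 4 controls. Its rank among all deposited summits was 35121 to 41771 in the 4 mutants on the diet that had a summit and 23991 to 39317 in controls on the diet. It was 20300 to 34703 in 3 mutants, with none in mutant 4, and 21807 to 28178 in controls. Mutants on the diet and controls did not overlap (two-sided Fisher's exact p = 0.00476, adjusted p = 0.862), and genotype over both diets gave an exact p = 0.0130 (adjusted p = 1). A stronger site 71.4 kb inside the gene (chromosome 4, 97649405 to 97649509) was at 66.8 to 89.2 (median 86.7) in mutants on the diet and 80.8 to 92.4 in controls on the diet. Mutants were at 89.5 to 93.0 there and controls at 88.0 to 95.3, so that mutants on the diet lay below all mutants without it, while both control groups overlapped (diet over both genotypes -5.24 points, SE 2.42, limma adjusted p = 0.306).

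**Figure D2:**
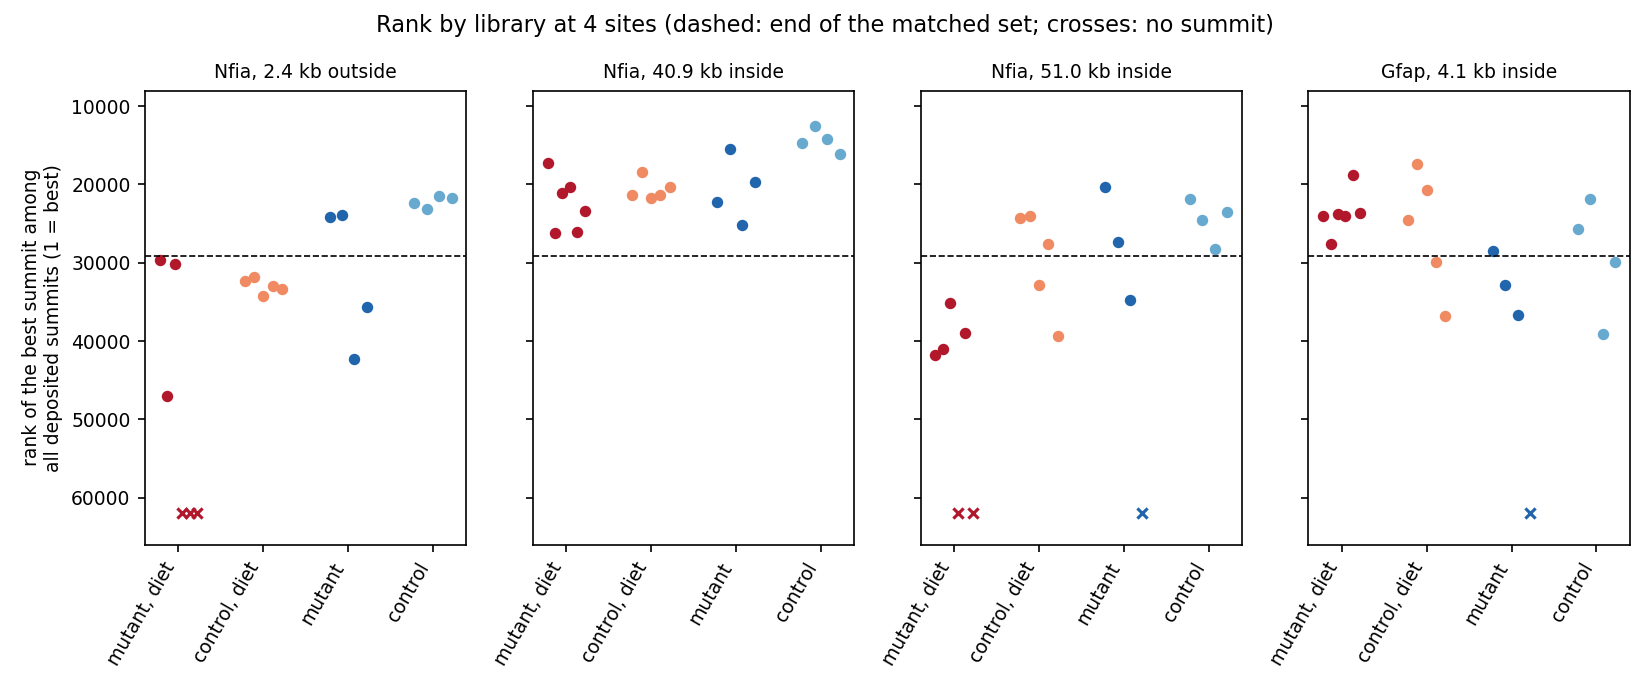
Rank of the best summit among all deposited summits of a library (vertical axis, best at the top) at 3 sites of Nfia and 1 of Gfap, by group, with 1 point per library. The dashed line is the matched limit of 29112 and crosses mark libraries without a summit; at the site 2.405 kb outside Nfia, controls lie at 21425 to 23081 and controls on the diet at 31787 to 34299.

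Nfib, the nuclear factor I gene with the most summits, had 14, 15 and 19 as lowest, median and highest in mutants on the diet. The controls on that diet had 12, 13, 16, 17 and 15, mutants 12, 18, 18 and 19, and controls 17, 13, 19 and 15. Groups overlapped, and mutant 1 was the one mutant without the diet below 18. Nfib formed 26 regions, 13 of them inside the gene and 6 in every library. The end with the higher coordinate was covered by 3 neighbouring regions (chromosome 4, starting at 82506124, 82506766 and 82507145), present in 3, 6 and 12 libraries, which together reached 18 of 19 libraries; mutant 6 on the diet had its end summit outside them. The best-ranked region lay 6.537 kb outside that end (chromosome 4, 82513192 to 82513385). It spread from 53.4 to 96.2 in percentile in mutants on the diet (median 67), from 56.3 to 85.0 in controls on the diet, from 58.2 to 94.7 in mutants and from 54.0 to 93.3 in controls, and the groups overlapped. A region inside the gene (chromosome 4, starting at 82447365) was at a mean percentile of 54.0 in mutants on the diet and 72.3 in mutants (-18.3 points, SE 7.11, limma adjusted p = 0.209). Without mutants 3 and 4 the difference was -5.83 points (SE 8.03, limma adjusted p = 0.810).

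Nfix, the remaining nuclear factor I gene of the group, had 4, 4.5 and 7 matched summits as lowest, median and highest in mutants on the diet. Controls on the diet had 4, 5, 5, 4 and 4, all 4 mutants had 4, and controls 4, 5, 4 and 4. The counts above 5 were those of mutants 5 and 6 on the diet, with 6 and 7. The difference between mutants on and off the diet was 0.26 on the log2 scale (SE 0.13, limma adjusted p = 0.718). In all deposited summits, where list lengths differ, its sign was reversed (-0.60, SE 0.21, limma adjusted p = 0.216). The diet over both genotypes gave 0.15 in the matched set (limma adjusted p = 0.919). In all deposited summits it gave -0.62 (SE 0.15, limma adjusted p = 0.133), the lowest adjusted p of any member gene and setting. Lyl1, a blood transcription factor gene, ends at base 84704716 of chromosome 8, just past the lower end of Nfix at 84704712. The end summits there cannot be told apart between both genes, and 5 to 8 matched summits per library inside Nfix were assigned to another gene. Of its 7 regions, 3 were present in every library. The best-ranked (chromosome 8, 84793968 to 84794110) was at 58.7 to 82.9 (median 71.9) in mutants on the diet, 44.2 to 84.1 in controls on the diet, 35.1 to 84.7 in mutants and 68.4 to 88.2 in controls. The region over the printed Nfix window had a mean percentile of 29.7 in mutants on the diet and 51.1 in controls (-21.4 points, SE 8.75, limma adjusted p = 0.379), and the difference was -33.2 points with the number of summits as a covariate (SE 8.84, limma adjusted p = 0.220). In the opposite direction, a region 40.2 kb inside Nfix (chromosome 8, 84761034 to 84761062) had a matched summit in 3 of 6 mutants on the diet, 2 of 5 controls on the diet, 0 of 4 mutants and 0 of 4 controls (diet over both genotypes, two-sided exact p = 0.0519, adjusted p = 0.775).

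Zbtb20, a zinc-finger repressor that promotes astrocyte formation, had 2, 2 and 3 matched summits as lowest, median and highest in mutants on the diet. The controls on that diet had 2, 2, 2, 2 and 3, mutants 2, 4, 4 and 1, and controls 2, 3, 4 and 3. Mutants thus held both the lowest and the highest counts. Its end with the lower coordinate carried a site among the best-scoring of each library, 0.102 kb outside the gene (chromosome 16, 42875530 to 42875645). The site ranked 2 to 431 in mutants on the diet (median 4.5), 7 to 18 in controls on the diet, 253, 22, 77 and 1 in mutants, and 34, 1395, 24 and 22 in controls. All controls on the diet ranked better there than all controls, and the other groups overlapped. The summit was the same base, 42875530, in 14 libraries and 42875645 in the other 5. Of 13035 regions present in every library, 3.86% had their summit at 1 base in at least 14 libraries. A weak site 93.1 kb outside the gene (chromosome 16, 42782577 to 42782579) was matched in 0 of 6 mutants on the diet, 1 of 5 controls on the diet, 2 of 4 mutants and 3 of 4 controls (diet over both genotypes, exact p = 0.0397, adjusted p = 0.775). Inside the 759 kb gene, 11 to 18 matched summits per library were present, of which 6 to 13 lay over 100 kb from any end and 3 to 5 were assigned to other genes. Tigit, an immune receptor gene, overlaps its end with the higher coordinate.

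**Figure D3:**
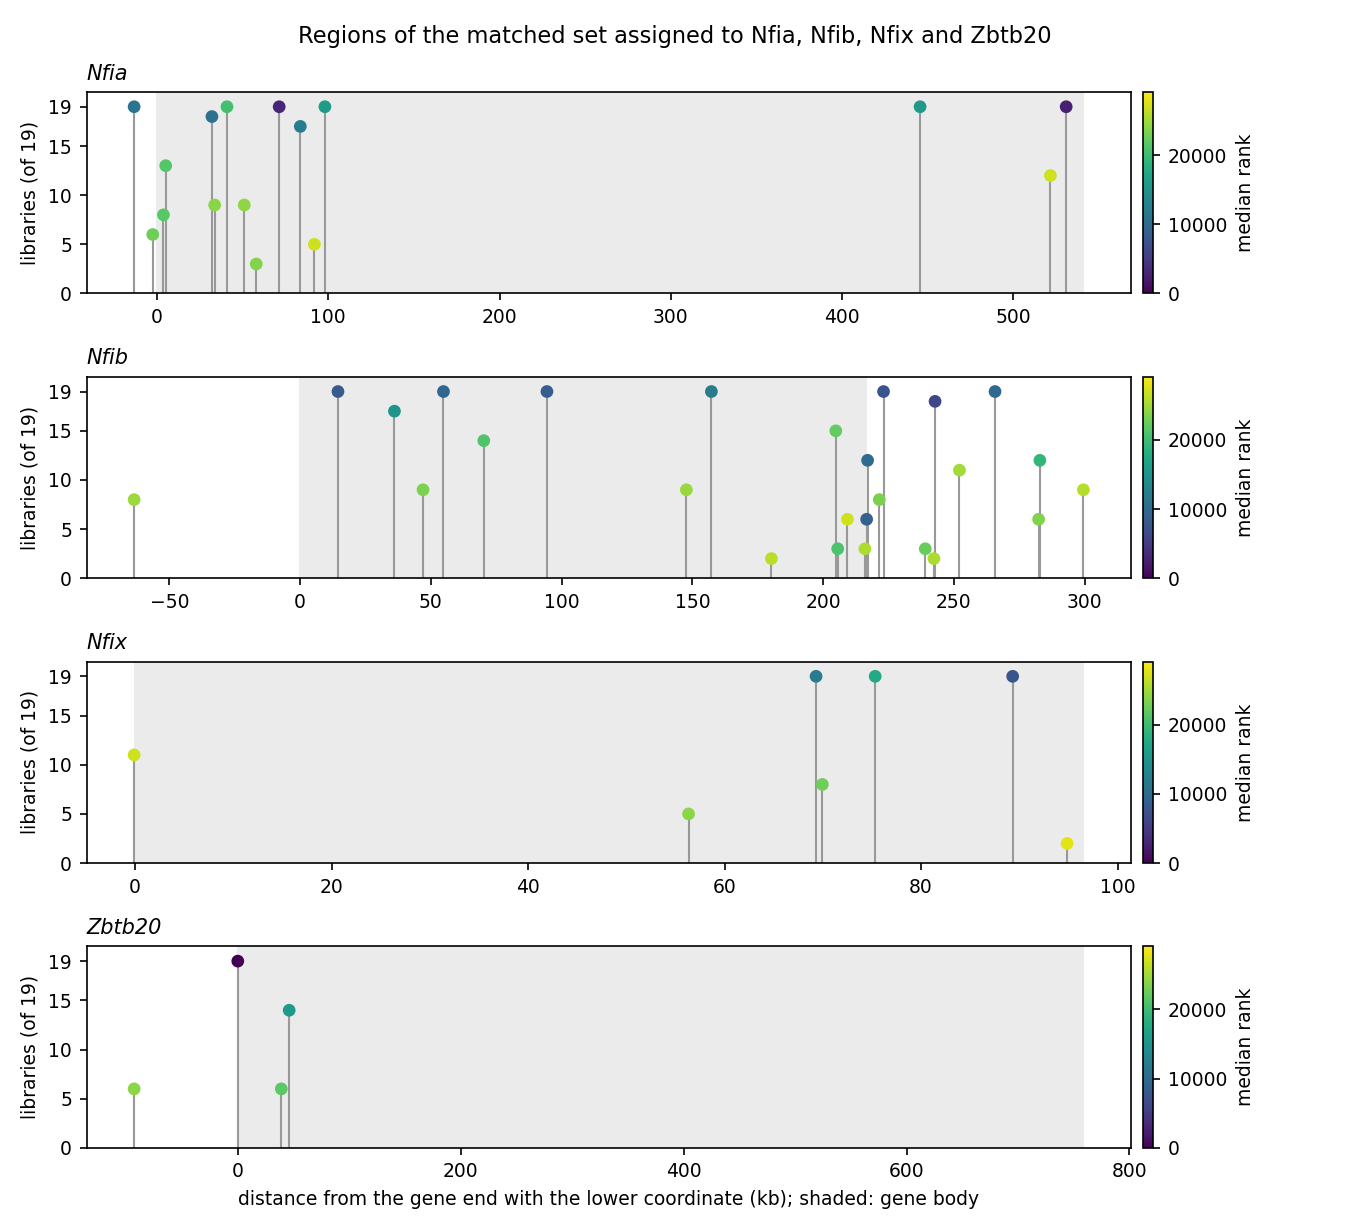
Regions of the matched set assigned to Nfia, Nfib, Nfix and Zbtb20 by distance from the gene end with the lower coordinate (horizontal axis, kb; gene bodies shaded), with the number of libraries that hold a summit (height) and the median rank (colour, dark for best). Gene interiors over 100 kb from an end are empty by the assignment rule; Zbtb20's region at its lower end is in all 19 libraries with a median rank of 15.

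Sox8, a SoxE factor gene, had 3, 3 and 4 matched summits as lowest, median and highest in mutants on the diet. Controls on the diet had 3, 3, 3, 3 and 2, mutants 3, 3, 2 and 3, and all 4 controls had 3. The difference between mutants and controls on the diet was 0.22 (log2, SE 0.11, limma adjusted p = 1). Its best-ranked region lay 4.11 kb outside the gene (chromosome 17, 25561743 to 25561823). There mutants on the diet were at a percentile of 45.4 to 89.1 (median 84.0), controls on the diet at 81.1 to 86.1, mutants at 71.9 to 86.9 and controls at 77.7 to 89.8. The promoter region itself ranked lower, with means of 39.7 ± 6.35 in mutants on the diet, 52.9 ± 13.0 in controls on the diet, 38.0 ± 16.1 in mutants and 49.2 ± 17.2 in controls (SD, n = 6, 5, 4 and 4).

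Sox10, the SoxE factor gene that oligodendrocytes need to mature, had 1 matched summit in every library except control 5 on the diet, which had 0. None lay inside the gene. Most fell into 2 neighbouring regions, 28.7 and 29.1 kb outside it (chromosome 15, 79193174 to 79193279 and 79193488 to 79193703). The nearer region was matched in 3 of 6 mutants on the diet, 4 of 5 controls on the diet, 3 of 4 mutants and 2 of 4 controls, and the farther one in 2 of 6 mutants on the diet, 0 of 5 controls on the diet, 1 of 4 mutants and 2 of 4 controls. Sox10 averaged 0.947 matched summits and was left out of the main gene test, which took genes with a mean of at least 1. It was tested in all deposited summits, where list lengths differ. There the log2 difference from controls was -0.73 in mutants on the diet (SE 0.30, limma adjusted p = 0.202). In controls on the diet it was -0.71 (SE 0.31, limma adjusted p = 0.971).

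Pdgfra, the receptor gene of oligodendrocyte precursors, had 2 matched summits in every library except mutant 4 on the diet, which had 4. In every library 2 of them came from regions present in all 19. The region 5.035 kb inside the gene (chromosome 5, 75156302 to 75156413) was at a percentile of 68.0 to 82.8 (median 77.2) in mutants on the diet, 72.4 to 85.2 in controls on the diet, 65.8 to 76.5 in mutants and 69.6 to 77.2 in controls. The region 49.3 kb outside (chromosome 5, 75247506 to 75247597) had means of 68.6 ± 9.82 in mutants on the diet and 68.6 ± 1.62 in controls on the diet, against 70.5 ± 11.4 in mutants and 80.4 ± 2.74 in controls (SD, n = 6, 5, 4 and 4). Controls (77.7 to 84.2) lay above all controls on the diet (66.5 to 70.5) and overlapped mutants on the diet (55.7 to 80.3). The difference from controls was -11.8 points in both diet groups (SE 5.37 in mutants and 5.58 in controls, limma adjusted p = 0.431 and 0.983).

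Gfap, the filament gene of mature astrocytes, was the one gene besides Sox10 with a library at 0. Mutants on the diet had 3, 2, 3, 2, 2 and 1 matched summits, controls on the diet 3, 3, 2, 1 and 1, mutants 3, 2, 0 and 0, and controls 3, 3, 1 and 2. The difference was 1.08 between mutants on and off the diet (log2, SE 0.52, limma adjusted p = 0.718) and -1.10 between mutants and controls (log2, SE 0.57, limma adjusted p = 0.794). Without mutants 3 and 4, the libraries at 0, these were -0.20 and 0.18. The 3 regions of Gfap lay 1.357 to 4.066 kb from its ends, at median ranks of 22954 to 24752, and none was in every library. The one in most libraries, 14, lay 3.778 kb outside (chromosome 11, 102900899 to 102901057), in 5 of 6 mutants on the diet, 4 of 5 controls on the diet, 2 of 4 mutants and 3 of 4 controls. The region 4.07 kb inside the gene (chromosome 11, 102893101 to 102893167) was matched in 6 of 6 mutants on the diet, 3 of 5 controls on the diet, 1 of 4 mutants and 2 of 4 controls. Among all deposited summits it ranked 18822 to 27574 in mutants on the diet, and 28557, 32812 and 36652 in mutants 1 to 3 with none in mutant 4, so that these groups did not overlap (two-sided Fisher's exact p = 0.0333 for the matched set, adjusted p = 1). The controls on that diet ranked 17398 to 36747 and controls 21806 to 39071.

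Aqp4, the astrocyte water channel gene, had 2, 2, 2, 1, 1 and 1 matched summits in mutants on the diet. Controls on the diet had 1, 2, 2, 2 and 2, mutants 2, 2, 3 and 2, and all 4 controls had 2. Its unadjusted limma p was under 0.05 in 2 contrasts, in mutants on against off the diet (log2 -0.49, SE 0.19, limma adjusted p = 0.593) and in the diet over both genotypes (log2 -0.32, SE 0.14, limma adjusted p = 0.652). The count of 1 came from mutants 4 to 6 on the diet, which had the shortest summit lists of their group, and from control 1 on the diet. These 4 libraries had no matched summit in a weak region 78.3 kb outside the gene (chromosome 18, 15310930 to 15311186, median rank 24124). Of the 4, 3 had a lower-ranked deposited summit there. Inside the gene every library had 1 matched summit. With the number of summits as a covariate, the differences were -0.26 (limma adjusted p = 0.776) and -0.14 (limma adjusted p = 0.996). At the second shortest list length without the shortest list they were -0.42 (limma adjusted p = 0.569) and -0.22 (limma adjusted p = 0.755). With all deposited summits, where list lengths differ, they were -1.26 (limma adjusted p = 0.220) and -0.93 (limma adjusted p = 0.204). A region 5.674 kb inside the gene was present in every library, at a percentile of 36.2 to 70.0 (median 59.3) in mutants on the diet, 39.5 to 65.0 in controls on the diet, 42.6 to 75.2 in mutants and 51.6 to 79.9 in controls.

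Aldh1l1, the folate enzyme gene used as a general astrocyte marker, had 3, 2, 4, 2, 3 and 3 matched summits in mutants on the diet. The controls on that diet had 5, 4, 3, 3 and 3, mutants 4, 4, 2 and 3, and controls 3, 3, 4 and 5. Mutants on the diet and controls on the diet overlapped (log2 -0.30, SE 0.20, limma adjusted p = 1). The best-ranked region lay 15.5 kb outside the gene (chromosome 6, 90535260 to 90535323), at a percentile of 53.9 to 70.7 (median 64.8) in mutants on the diet, 56.8 to 66.5 in controls on the diet, 59.6 to 74.8 in mutants and 52.4 to 76.9 in controls. Inside the gene, a region 10.8 kb from an end (chromosome 6, 90561446 to 90561595) had means of 61.5 ± 15 in mutants on the diet and 41.5 ± 15 in mutants (SD, n = 6 and 4, difference 20.1 points, SE 8.19, limma adjusted p = 0.223). It was 13.3 points without mutant 4 (limma adjusted p = 0.531) and 9.52 points without mutants 3 and 4 (SE 9.30, limma adjusted p = 0.721).

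**Figure D4:**
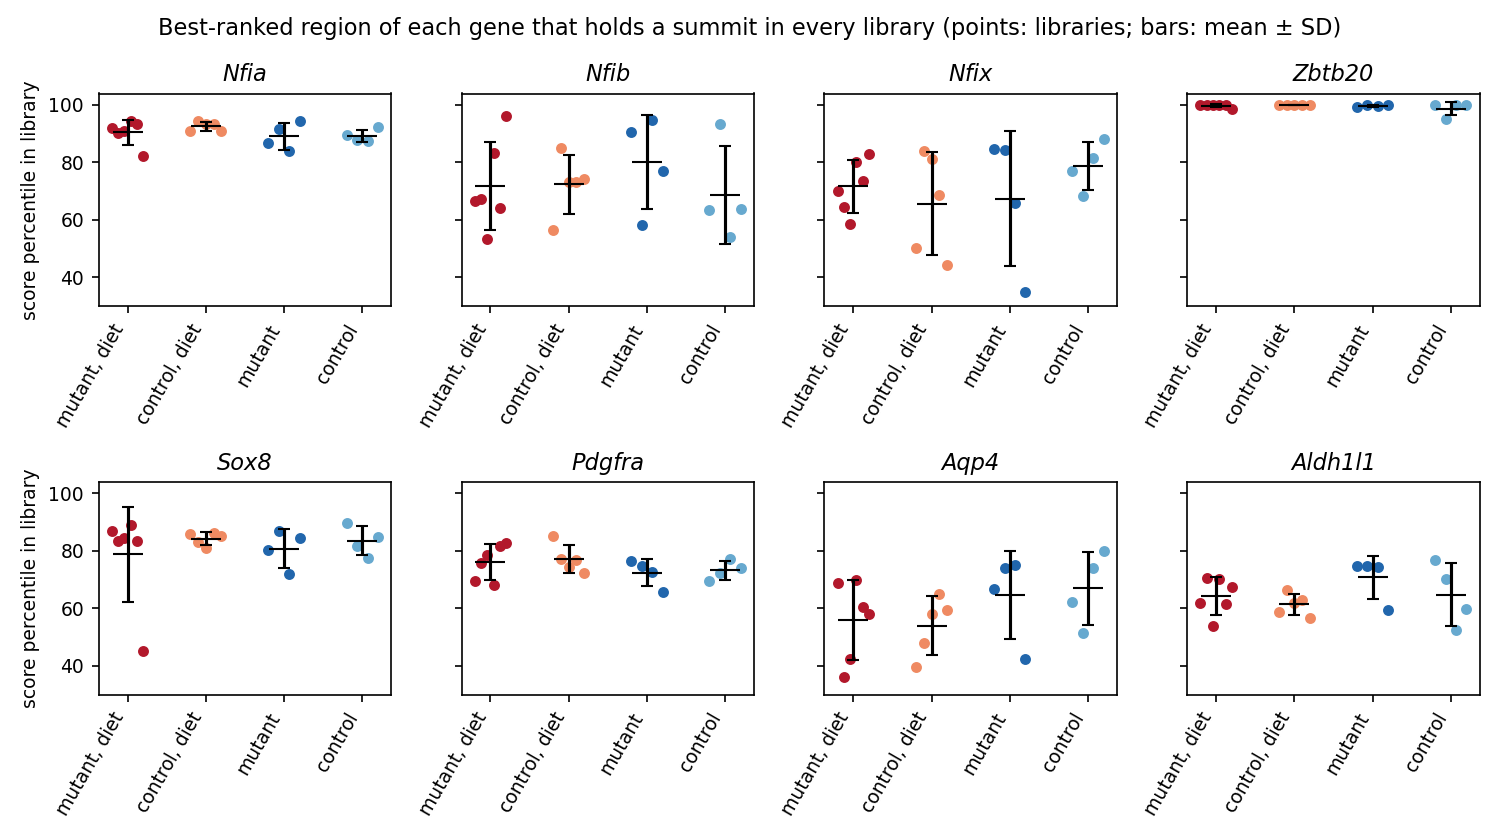
Score percentile within the matched set (vertical axis, 100 is best; the axis starts at 30) of the best-ranked region of 8 genes that have one in every library, by group; points are libraries and bars the mean and SD. Nfia's region is at 82.4 or above and Zbtb20's at 95.2 or above in every library, and groups overlap except for controls on the diet against controls at Zbtb20.

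No gene of the 10 passed a test of diet or genotype. On log2(matched summits + 0.5), with 9 of the 10 measured among 10827 genes, limma called 0 of 9 at an adjusted p under 0.05 in each of 8 contrasts. The share called over all genes was 0.0277% for mutants against controls on the diet, 0.0185% for mutants on against off the diet, 0% for controls on against off the diet and 0% for mutants against controls without the diet. It was 0.0277% for mutants on the diet against controls, 0.0647% for the diet over both genotypes, 0.00924% for genotype over both diets and 0.00924% for the interaction. At an unadjusted p under 0.05, Aqp4 alone was counted in mutants on against off the diet, where 6.82% of all genes were, and in the diet over both genotypes, where 7.29% were. It was 0 of 9 in the other contrasts, where the share of all genes was 3.08% for mutants against controls on the diet, 4.27% for controls on against off the diet, 5.71% for mutants against controls, 6.66% for mutants on the diet against controls, 5.86% for genotype over both diets and 3.49% for the interaction. The median log2 difference of the 9 genes lay between -0.10 and 0.14 over the 8 contrasts, against 0 for all genes. The summed matched summits of the 10 genes were 47.5 ± 2.59 per library in mutants on the diet, 45.8 ± 1.92 in controls on the diet, 47.25 ± 3.40 in mutants and 49.25 ± 1.26 in controls (SD, n = 6, 5, 4 and 4). Every control without the diet had 48 or more, as had 2 of 6 mutants on the diet, 1 of 5 controls on the diet and 1 of 4 mutants.

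**Figure D5:**
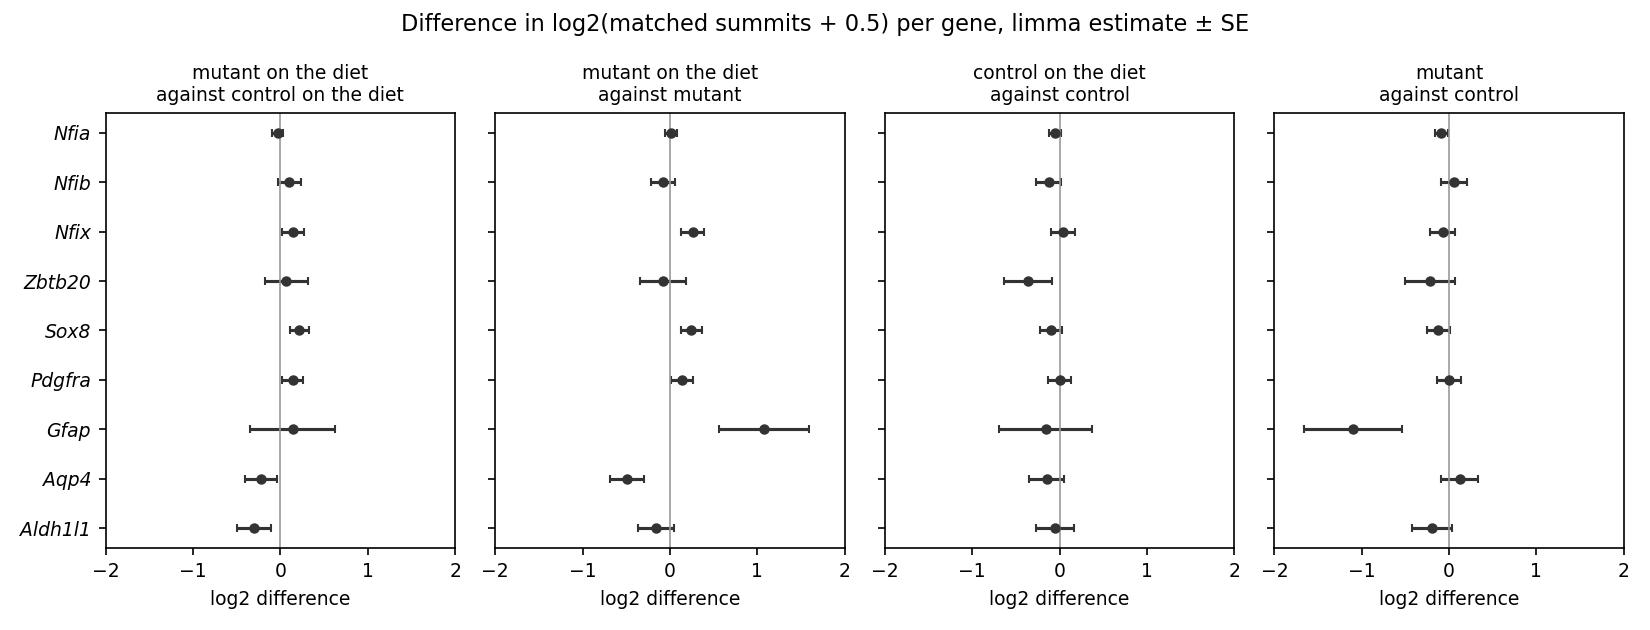
Difference in log2(matched summits + 0.5) per gene (horizontal axis) for 4 contrasts, as the limma estimate with its SE, for the 9 genes measured. Estimates for Nfia and Nfib stay between -0.13 and 0.10, and those of Gfap reach -1.10 and 1.08 with the widest errors; none passed at an adjusted p under 0.05.

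Regions gave the same count of calls. Of the 23 member regions present in every library, limma on the percentile called 0 in each of the 8 contrasts, where the share called over 13035 regions was 0.184% for the diet over both genotypes, 0.00767% for mutants on the diet against controls and 0% in the other 6. An unadjusted p under 0.05 was found for 4 of the 23 in mutants on the diet against controls, where 11% of all regions had one. It was found for 2 of 23 for the diet over both genotypes (15.3% of all), 2 in mutants on against off the diet (17.1% of all), 2 in controls on against off the diet (4.97% of all), 1 in mutants against controls (12.9% of all), 1 for genotype over both diets (10.3% of all), 0 in mutants against controls on the diet (2.03% of all) and 0 for the interaction (4.56% of all). The median difference of the 23 was -4.25 points in mutants on the diet against controls, against -0.92 over all regions, and -1.93 points for the diet over both genotypes, against 0.36 over all. The same median was 0.05 in mutants on against off the diet (0.45 over all) and -1.85 in controls on against off it (0.008 over all). Mutants against controls gave -2.70 without the diet (-0.98 over all) and -0.39 on it (-0.96 over all). Genotype over both diets gave -2.29 (-1.07 over all) and the interaction 0.40 (0.05 over all).

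Presence of a matched summit was tested in the 48 member regions found in 2 to 18 libraries, of 31849 such regions. Exact tests called 0 of 48 in each contrast at an adjusted p under 0.05, and 0% of all regions. In contrasts of single groups these zeros were nearly fixed by the group sizes. A full separation of controls on and off the diet gave a two-sided Fisher's exact p of only 0.00794. Over 31849 regions such a p passes only if a great many regions separate. Equal presence therefore cannot be read from the zeros. Unadjusted, 3 of 48 had an exact p under 0.05 for the diet over both genotypes, all lower on the diet, where 3.08% of all regions were so. The same number was lower in mutants on the diet against controls (2.35% of all), 1 in controls on against off the diet (1.85% of all) and 1 for genotype over both diets (1.5% of all). The 2 Nfia sites at 2.405 kb outside and 51.0 kb inside were in no mutant on the diet and in every control, as were 0.380% of all regions. The site 2.405 kb outside was also in no control on the diet, as were 0.251% of all. The Gfap region 4.07 kb inside was the 1 of 48 with an unadjusted exact p under 0.05 in mutants on against off the diet (1.70% of all), and 0 of 48 had one in mutants against controls on the diet (0.430% of all) or in mutants against controls without it (0.214% of all).

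With every deposited summit, 199 member regions were tested of 131788, and exact tests again called 0 of 199, and 0% of all, in each contrast. A full separation of mutants on the diet and controls gave a two-sided Fisher's exact p = 0.00476 (adjusted p = 0.491). In contrasts of single groups these zeros therefore cannot show equal presence either. For the diet over both genotypes 18 of 199 had an unadjusted exact p under 0.05 and all 18 were present in fewer libraries on the diet, against 8.08% of all regions. By the same count, regions in fewer libraries numbered 11 in mutants on the diet against controls (5.71% of all), 8 in controls on against off the diet (2.91% of all), 7 in mutants on against off the diet (3.05% of all), 3 for genotype over both diets (1.93% of all) and 1 in mutants against controls on the diet (0.445% of all). None was found in mutants against controls without the diet, where the exact test gave 0.0979% of all an unadjusted p under 0.05. Lists on the diet were shorter, with medians of 67034.5 summits in mutants on the diet and 79301 in controls on the diet against 108352 in mutants and 97018 in controls. In the matched set, where list lengths are equal, 3 of 48 were lower on the diet by the same count (3.08% of all). Nfib and Nfia held 4 each of the 18, Nfix 4, Pdgfra 3, and Aldh1l1, Zbtb20 and Aqp4 1 each. A region 3.094 kb inside Nfix (chromosome 8, 84798107 to 84798182) was present in 1 of 6 mutants on the diet, 0 of 5 controls on the diet, 2 of 4 mutants and 4 of 4 controls, a separation of controls on and off the diet that 0.289% of all regions showed in that direction. A region 6.881 kb outside Pdgfra (chromosome 5, 75144341 to 75144541) was present in 0 of 6 mutants on the diet, 2 of 5 controls on the diet, 3 of 4 mutants and 4 of 4 controls, as 0.957% of all regions were absent from mutants on the diet and present in every control. Both ranked between 37721 and 81339, below the matched limit.

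Other genes of gliogenesis were counted beside the 10. Of 54 listed names of factors, receptors and glial markers, 53 matched a gene. The exception was the name Brn2, while Pou3f2 was listed and matched. Of these genes, 45 were measured and 23 had a summit within 1 kb of an end in every library, against 36.6% of all genes. Limma called 1 of 45, lower, in mutants against controls on the diet, where 0.0277% of 10827 genes were called, and 0 in the other 7 contrasts. It was Bmpr1a, the gene of a bone morphogenetic protein receptor, with 1, 1, 1, 1, 2 and 1 matched summits in mutants on the diet and 2, 3, 3, 3 and 3 in controls on the diet (log2 -1, SE 0.16, limma adjusted p = 0.0320). Mutants had 3, 2, 2 and 3 and controls 3, 3, 2 and 3. The call was lost in 14 of 19 fits that left out 1 library, namely mutants 1, 2, 3, 4 or 6 on the diet, controls 2, 3, 4 or 5 on the diet, mutants 1 or 2, or controls 1, 2 or 4 (limma adjusted p = 0.0523 to 0.191). It was also lost at the second shortest list length without the shortest list (log2 -0.17, limma adjusted p = 1), and with all deposited summits the difference was -0.72 (limma adjusted p = 0.723). Olig2, a factor gene of oligodendrocyte precursors, had a difference of -1.14 between mutants on and off the diet (log2, SE 0.41, limma adjusted p = 0.452). Between mutants on the diet and controls it was -1.38 (log2, SE 0.41, limma adjusted p = 0.391). Mean counts of Olig2 were 1 in mutants on the diet, 1.8 in controls on the diet, 2.25 in mutants and 2.75 in controls. Olig1, its neighbour, had 5, 6, 5, 2, 5 and 4 matched summits in mutants on the diet, 5, 4, 5, 5 and 5 in controls on the diet, 4, 4, 7 and 5 in mutants and 2, 2, 3 and 3 in controls. Controls had the lowest counts, and only mutant 4 on the diet overlapped them, whereas at Olig2 controls had the highest mean. A summit counts for 1 gene only, the one with the nearest end. The log2 difference from controls was 0.70 in mutants on the diet (SE 0.22, limma adjusted p = 0.400), 0.84 in controls on the diet (SE 0.23, limma adjusted p = 0.610) and 0.86 in mutants (SE 0.24, limma adjusted p = 0.668).

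Genes with the most similar profile of matched summits over the 19 libraries were Pam and Ssbp2 for Nfib (Spearman correlation 0.85 and 0.81), Kcna3 and Xxylt1 for Nfia (0.75 and 0.71), Olfm2 and Slc6a6 for Nfix (0.74 and 0.71) and Ank3 and Pou3f1 for Zbtb20 (0.65 and 0.60). They are the 2 highest of 1852 genes with a mean of at least 3 summits, given as a description over libraries of equal matched list length. Score depth was not equal. The median matched score ran from 7.33 in mutant 4 on the diet to 110.95 in control 4. The matched set therefore fixes rank and not a score threshold.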

How the data were processed

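The authors deposited 1 list of ATAC-seq peak summits per library, with a score that is the −log10 q value of the peak; the lowest scores (1.3 to 1.32) match a q value of 0.05. MACS2, BWA, Signac and DiffBind are named, without versions, per the submitters' processing notes, with the mm10 (GRCm38) build. Groups came from sample titles. The 29112 best summits of each library were kept as the matched set, summits were assigned to the nearest end of a protein-coding gene within 100 kb (RefSeq, GRCm38.p6), and summits at most 200 bp apart were chained into regions. Python 3.11.15, pandas 2.3.3, scipy 1.17.1, R 4.3.3 and limma 3.58.1 were used. Limma, with trend and robust steps over all 4 groups, tested log2(summits + 0.5) in genes averaging 1 or more, and the percentile of regions in every library; Fisher's exact test, or an exact test stratified by the other factor, tested presence. P-values were adjusted by Benjamini-Hochberg over all features. Steps were tested on simulated data. Alternatives changed list length, distances, chaining, pseudocount, filter, covariates and libraries. The genes and lists were chosen with earlier results of these data known. Regions were named where best-ranked per gene, where groups separated fully, or where the diet or genotype test had an unadjusted p under 0.05. Regions with such a p in other percentile contrasts were added after their values were seen. So were the Nfib and Sox8 end regions, the farther Sox10 region and the Gfap region 4.07 kb inside its gene. The Nfia region lowest in controls, the weak Aqp4 region outside its gene, and the Nfia and Nfix regions matched only on the diet were also added then. Between pairs of libraries at most 0.00144% of summits had the same position and score. Exons were not used here.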

Additional observations from a re-analysis of the deposited data

Results flagged for a closer look

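Single libraries stood far from the rest of their group in 15 groups of values, and chance alone flags about 1 in 20 groups. Among summit counts per gene this held for 9 of 40 groups, where most of the counts are small whole numbers and a difference of 1 from otherwise equal libraries is enough. Nfib had 12 matched summits in mutant 1, against 18 to 19 in the other mutants, and Pdgfra had 4 in mutant 4 on the diet, against 2 in each of the others of that group. Control 5 on the diet had 3 for Zbtb20 (others 2), 2 for Sox8 (others 3) and 0 for Sox10 (others 1). Mutant 3 had 2 for Sox8 (others 3) and 3 for Aqp4 (others 2), control 1 on the diet had 1 for Aqp4 (others 2), and control 2 had 5 for Nfix (others 4).

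Among score percentiles it held for 6 of 40 groups, and 4 of the 6 were mutant 6 on the diet, whose list of 48323 summits is the second shortest of the series. That library was at 82.4 in the best region of Nfia (others 90.1 to 94.3) and at 66.8 in the Nfia region 71.4 kb inside the gene (others 85.5 to 89.2). It was at 45.4 in the Sox8 region 4.11 kb outside the gene (others 83.6 to 89.1) and at 98.5 in the Zbtb20 end region, where the others were above 99.9. Control 2 was at 95.2 in that Zbtb20 region (others 99.9), and mutant 4 was at 59.6 in the best region of Aldh1l1 (others 74.3 to 74.8).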

How the results depend on the processing

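No member gene or region was called by limma or the exact tests under any setting run: 30 settings for summits per gene, 31 for percentiles, 26 for presence in the matched set and 22 for presence in all deposited summits. In the main fits at most 0.184% of all features were called in any contrast, so zeros among few members are near that share. Shares under the other settings are not given, so these zeros cannot show that the members were unaffected. For presence between single groups, the group sizes kept a call almost out of reach under each setting. The lowest adjusted p was 0.133 for genes (diet, all deposited summits), 0.0570 for percentiles (diet, without mutants 3 and 4), 0.250 for matched presence (diet, without mutants 3 and 4) and 0.228 for presence in all deposited summits (diet, without mutant 4). Without mutant 1, whose labels conflict, it was 0.217 for genes and 0.113 for percentiles. Over 25 pairs of libraries with the same title number, the correlation of deviations ran from -0.327 to 0.400 (median 0.0494). It exceeded 0.1 in 10 pairs, and 5 of 19 libraries correlated best with their own number. Pairs of unlike number are not given for comparison, so these values do not settle whether the numbers pair libraries. With the number as a replicate block there were 0 calls (lowest adjusted p 0.518 for genes and 0.106 for percentiles). Single values moved beyond the spread between libraries in 89 gene and 12 region comparisons, and 240 of 4376 comparisons of uncalled values changed sign. The Nfia site 40.9 kb inside the gene stayed between -31.0 and -17.5 points for mutants on the diet against controls over 26 settings (limma adjusted p = 0.0875 to 0.520); without mutant 3 its summits no longer chained into 1 region in every library, and it had no value. Presence near the matched limit depends on that limit: at 14556 summits the 2 Nfia sites and the distal Zbtb20 site were in no library. Read depth is unknown, list length differs between groups, and summits carry no width or read count, so weak sites limit what presence can show.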
